A study of Mus musculus with 6 samples.

Results

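The 10 genes described here encode subunits of the SEC61 translocon and of the oligosaccharyltransferase (OST) complex, and were measured by RNA-seq in mouse colon. They were chosen by name as subunits of these complexes, with earlier results of these data known. They comprised Sec61a1, Sec61b and Sec61g of the translocon and Stt3a, Stt3b, Rpn1, Rpn2, Ddost, Dad1 and Ostc of the OST complex. These are 10 of the 24517 genes with a listed read count, and all 10 passed the filter that left 16347 genes for testing. The study compared 3 control mice (Nsd2fl/fl), which carried the floxed Nsd2 gene without its deletion, with 3 knockout mice (Nsd2ΔIE), in which Nsd2 was deleted in the intestinal epithelium by Cre under the Villin promoter. NSD2 is a histone methyltransferase that dimethylates histone H3 at lysine 36. All 6 animals had a C57BL/6J background and were fed HFCD, a diet rich in fat and cholesterol. The labels give 16 weeks of feeding, and the study's text gives another duration. The labels give neither age nor sex, and the RNA came from colon tissue rather than from sorted epithelium.

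The SEC61 channel is the pore in the endoplasmic reticulum (ER) membrane through which secretory proteins enter the ER lumen and membrane proteins are inserted. Its alpha subunit, encoded by Sec61a1, forms the pore, and the small beta and gamma subunits, encoded by Sec61b and Sec61g, lie at its side. The OST complex transfers a preassembled glycan from a dolichol lipid carrier to asparagines of the entering chain. Cells carry one form of OST built around STT3A, which sits beside the SEC61 channel and acts while the chain is being made, and another built around STT3B, which can also act after synthesis. In the colon, the machinery is heavily used by goblet cells, which secrete mucins, and by plasma cells, which secrete antibodies.

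The libraries held 38041832 to 38604680 counts, and the lowest count of any member was 2367, so counting error was small beside the spread between animals. Levels within a gene are given in CPM, read counts brought to one library size with TMM factors. Nsd2 itself was measured at 47.8, 59.1 and 68.9 CPM in Nsd2fl/fl replicates 1, 2 and 3 and 24.5, 23.1 and 27.45 CPM in Nsd2ΔIE replicates 1, 2 and 3, and the groups did not overlap. Its log2 fold change (Nsd2ΔIE against Nsd2fl/fl) was -1.23 (SE 0.159, adjusted p = 0.302; edgeR quasi-likelihood test with Benjamini-Hochberg adjustment over all genes tested, n = 3 per group). Xist, which is transcribed from the inactive X chromosome, had 0 to 4 counts in the controls and 21217 to 24234 in the knockouts, and the sum of 4 Y-linked genes (Uty, Kdm5d, Ddx3y and Eif2s3y) ran from 5058 to 6110 counts in the controls and from 0 to 1 in the knockouts. The study's methods describe male littermates. Genotype and this sex-linked difference cannot be told apart in any result below. In whole tissue, fewer cells of a type and less RNA per cell cannot be told apart either.

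None of the 10 members passed the adjusted threshold of 0.05, which 5 of the 16347 genes passed (0.0306%). All 10 had a fitted log2 fold change below 0, from -0.45 for Ddost to -0.19 for Rpn2, with a median of -0.254. Over all genes tested the median was -0.041, and 56.3% of genes lay below 0. Ddost alone passed an unadjusted p under 0.05 with a change of more than 0.32 on the log2 scale, the threshold stated in the study, which 2.21% of all genes passed in the lower direction. At an unadjusted p under 0.05 without a minimum fold, 1 member was lower (2.96% of all genes) and 0 were higher (8.15% of all genes). In 3 members, Stt3a, Stt3b and Ddost, every knockout library was below every control library, against 7.28% of all genes, and in 0 members was every knockout library above every control library (11.4% of all genes). DESeq2 called 0 members at an adjusted p under 0.05, where 2.79% of the genes with a defined value passed.

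The translocon subunits were higher on average in the controls, but within a wide control spread. Sec61a1 was measured at 233, 379 and 361 CPM in Nsd2fl/fl replicates 1, 2 and 3 and 255, 253 and 267 CPM in Nsd2ΔIE replicates 1, 2 and 3. Control replicates 2 and 3 stood above the other 4 libraries, and control replicate 1 was the lowest of all 6, so the groups overlapped. The means were 324 ± 79.5 CPM in the controls and 258.5 ± 7.31 CPM in the knockouts (SD, n = 3 each), and the log2 fold change was -0.33 (SE 0.198, adjusted p = 0.596 by edgeR). Sec61b, which encodes the beta subunit, was at 78.7, 128 and 150.4 CPM in the controls and 88.7, 95.8 and 102 CPM in the knockouts, in replicate order. The same control library was lowest, control replicate 3 was highest, and the groups overlapped. Its log2 fold change was -0.32 (SE 0.232, adjusted p = 0.654 by edgeR). Sec61g, which encodes the gamma subunit, was at 61.5, 95.25 and 122.5 CPM in the controls and 71.15, 79.8 and 92.7 CPM in the knockouts. Its highest library had 1.99 times the level of its lowest, the widest range of the 10 members, and both of those libraries were controls. The log2 fold change of Sec61g was -0.20 (SE 0.25, adjusted p = 0.796 by edgeR). Sec61a1 lies at chr6:88503579-88518905 on the minus strand, Sec61b at chr4:47474658-47483242 on the plus strand and Sec61g at chr11:16500530-16508484 on the minus strand (mm10). Annotated copies of Sec61b and Sec61g with at least 95% identity exist, so the split of their reads is uncertain: Gm10320 matched Sec61b at 98.312% over 474 bases and had at most 14 counts in a library, and Gm10177 matched Sec61g at 100% over 420 bases and was not among the listed genes.

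**Figure D1:**
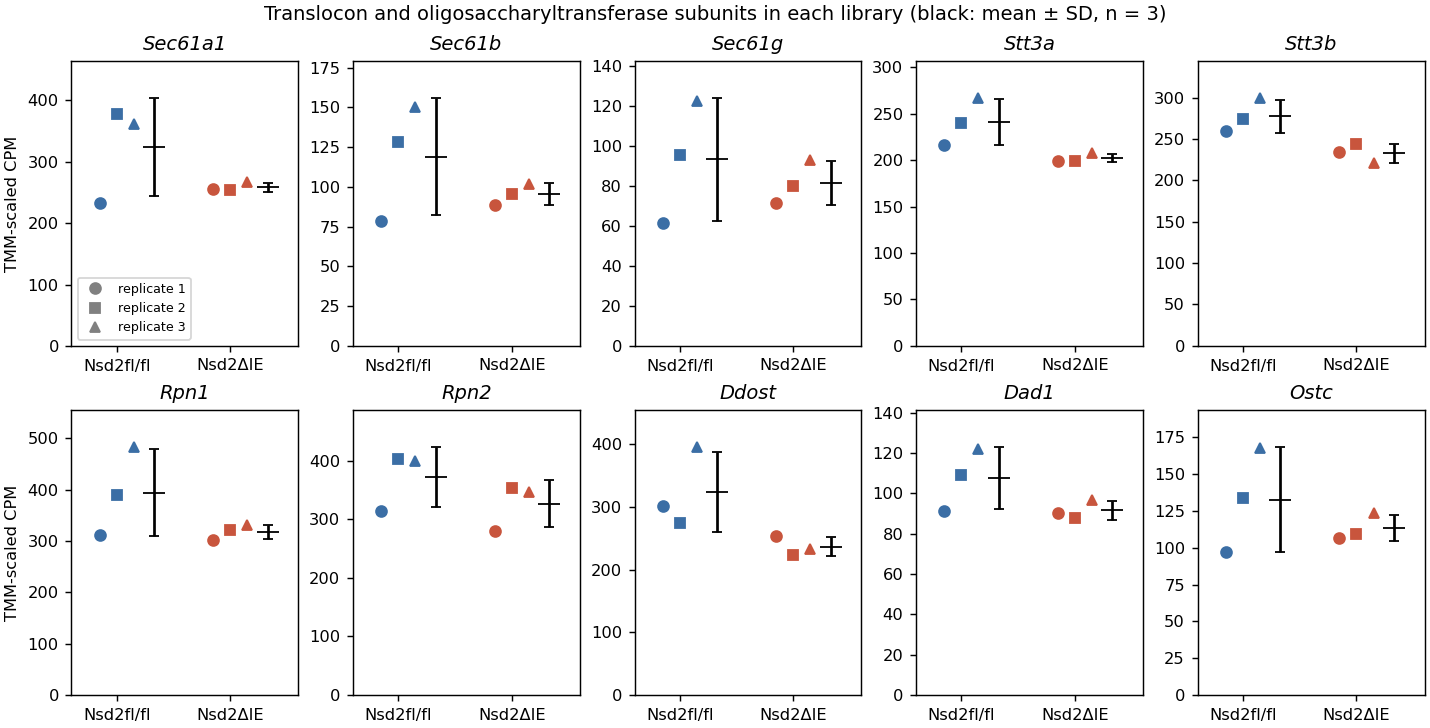
TMM-scaled CPM of each member (y axis, CPM) in the 3 Nsd2fl/fl libraries (blue) and the 3 Nsd2ΔIE libraries (red), with symbols for the replicate numbers and black bars for the mean ± SD (n = 3). The controls are more spread than the knockouts in all 10 panels, and the groups are separate for Stt3a, Stt3b and Ddost.

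The catalytic subunits were the most even members across libraries. Stt3a was at 217, 240.3 and 267 CPM in Nsd2fl/fl replicates 1, 2 and 3 and 199.6, 199 and 207 CPM in Nsd2ΔIE replicates 1, 2 and 3, and its highest library had 1.34 times the level of its lowest. All 3 knockout libraries were below all 3 controls, the nearest pair being knockout replicate 3 and control replicate 1. The means were 241 ± 24.9 CPM in the controls and 202 ± 4.51 CPM in the knockouts (SD, n = 3 each), with a fitted log2 change of -0.26 (SE 0.122, adjusted p = 0.499 by edgeR). Stt3b was at 259.6, 273.5 and 299 CPM in the controls and 234.5, 243.5 and 220.4 CPM in the knockouts, again without overlap, and its lowest library was knockout replicate 3. Its means were 277 ± 20.1 CPM in the controls and 233 ± 11.6 CPM in the knockouts (SD, n = 3 each), with a fitted log2 change of -0.25 (SE 0.118, adjusted p = 0.49 by edgeR). Neither passed the unadjusted threshold. Both genes lie on chromosome 9 and on the minus strand, Stt3a at chr9:36729344-36767679 and Stt3b at chr9:115242581-115310421 (mm10).

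The RNA of the catalytic subunits of both OST forms was compared as the ratio of Stt3a to Stt3b within each library. FPKM values (reads scaled to gene length and library total) were used. This ratio, which no scaling between libraries can change, does not measure the amounts of the assembled complexes. It was 0.63, 0.662 and 0.672 in the controls and 0.642, 0.617 and 0.709 in the knockouts. The groups overlapped fully, and the log2 ratio was -0.61 ± 0.0492 in the controls and -0.61 ± 0.103 in the knockouts (SD, n = 3 each), a difference of 0.00 (exact permutation test, two-sided, p = 1). With 3 libraries per group this exact permutation test cannot go below p = 0.1, so no shift of any size could have passed 0.05, and the values are given as a description. Of 8 subunit ratios compared in this way, none had an exact p under 0.2, and the adjusted p (Benjamini-Hochberg over the 8) was at least 0.8. The largest difference was in Ddost against Rpn2, with ratios of 2.04, 1.44 and 2.09 in the controls and 1.92, 1.34 and 1.42 in the knockouts (log2 difference -0.25, exact permutation p = 0.2). Control replicate 2 and knockout replicates 2 and 3 were low in this ratio, so its 3 low libraries came from both genotypes.

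Ddost had the largest log2 fold change of the 10 members. It encodes a noncatalytic OST subunit that helps to hold the complex together and lies at chr4:138304730-138312628 on the plus strand (mm10). It was measured at 301, 274 and 395 CPM in Nsd2fl/fl replicates 1, 2 and 3 and 254, 224 and 232 CPM in Nsd2ΔIE replicates 1, 2 and 3. All 3 knockout libraries were below all 3 controls, and control replicate 3 stood far above the other controls. The means were 323.5 ± 63.6 CPM in the controls and 237 ± 15.6 CPM in the knockouts (SD, n = 3 each), with a fitted log2 change of -0.45 (SE 0.168, adjusted p = 0.406 by edgeR). Without control replicate 3 the log2 fold change was -0.28, and it no longer passed the unadjusted threshold.

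Rpn1 and Rpn2 encode the ribophorins, large noncatalytic OST subunits. Rpn1, at chr6:88084482-88105304 on the plus strand (mm10), was at 312, 389 and 482.5 CPM in Nsd2fl/fl replicates 1, 2 and 3 and 303, 321 and 330.4 CPM in Nsd2ΔIE replicates 1, 2 and 3. The 3 knockout libraries and control replicate 1 lay within a narrow band, and control replicates 2 and 3 lay above it. The log2 fold change of Rpn1 was -0.31 (SE 0.18, adjusted p = 0.581 by edgeR). Rpn2, at chr2:157279017-157326319 on the plus strand, was at 314, 403 and 400.5 CPM in the controls and 281, 354 and 346.5 CPM in the knockouts. Its lowest library was knockout replicate 1, followed by control replicate 1, and it had the smallest log2 fold change of the members, -0.19 (SE 0.164, adjusted p = 0.709 by edgeR). Rpn2 shares 242 exonic bases with Mroh8 on the opposite strand, a gene with at most 29 counts in a library. Opposite-strand overlaps were also annotated for Sec61a1 (549 bases, with Gm44170) and Rpn1 (131 bases, with Mir6376), and neither partner was among the listed genes. Whether strand was used in counting is not given in the sources used here.

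Promoter windows of RefSeq transcripts (GRCm38.p6, 250 bases before to 50 after the start) were matched for 8 of the 10 members, all but Sec61a1 and Ostc. They are shown for Ddost, the member with the largest fold change, and Rpn1, the member closest to the average pattern, so that the positions of the motifs searched can be seen. The printed run is the 250 bases before the start, 5′ to 3′, with CCAAT and CCACG on either strand in capitals. The windows are chr4:138304488-138304737 on the plus strand for Ddost and chr6:88084223-88084472 on the plus strand for Rpn1.
Ddost: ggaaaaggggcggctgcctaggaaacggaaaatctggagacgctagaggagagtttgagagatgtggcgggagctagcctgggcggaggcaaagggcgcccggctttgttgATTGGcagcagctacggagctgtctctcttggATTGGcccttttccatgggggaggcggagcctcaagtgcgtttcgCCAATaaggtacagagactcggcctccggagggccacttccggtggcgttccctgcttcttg
Rpn1: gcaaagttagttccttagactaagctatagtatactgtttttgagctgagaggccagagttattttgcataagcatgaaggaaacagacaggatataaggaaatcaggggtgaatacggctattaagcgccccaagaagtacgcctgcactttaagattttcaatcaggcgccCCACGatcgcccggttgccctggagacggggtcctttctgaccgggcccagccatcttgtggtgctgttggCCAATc
The ER stress element joins CCAAT, 9 bases of any kind and CCACG, and is the motif read by ATF6 together with NF-Y. It was found in 0 of the 8 members' promoters and in 0.119% of the 32851 promoter windows. TGACGTG, a motif bound by XBP1 and ATF6, was found in 0 of the 8 and in 2.01% of all. CCAAT alone, which NF-Y binds, was in 7 of the 8 (37.4% of all), and CCACG alone in 5 of the 8 (32.8% of all). Ddost held CCAAT 3 times, with first bases at -139 and -107 (opposite strand) and -62 (same strand) from the start, and CCACG at 18 and 32, past the printed run. Rpn1 held CCAAT once, at -6, and CCACG at -77 and, past the printed run, at 12. The bases after this RefSeq start of Rpn1 were not found in an annotated coding transcript. The GENCODE gene begins at 88084482 and the printed run ends at 88084472, so the Rpn1 positions hold for the RefSeq start only. These matches are of letters in the window and describe no binding.

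Dad1 and Ostc encode small membrane subunits, and OSTC belongs to the STT3A form, where it contributes to the contact with the translocon. Dad1, at chr14:54235479-54254104 on the minus strand (mm10), was at 91.4, 109 and 122 CPM in the controls and 90.1, 87.7 and 96.7 CPM in the knockouts. Control replicate 1 lay among the knockouts, and the log2 fold change was -0.23 (SE 0.13, adjusted p = 0.57 by edgeR). Ostc, at chr3:130695912-130709444 on the minus strand, was at 96.8, 133.5 and 168 CPM in the controls and 107, 109 and 123 CPM in the knockouts. Control replicate 1 was the lowest library and control replicate 3 the highest, as in Sec61b and Sec61g. The log2 fold change of Ostc was -0.23 (SE 0.203, adjusted p = 0.712 by edgeR).

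**Figure D2:**
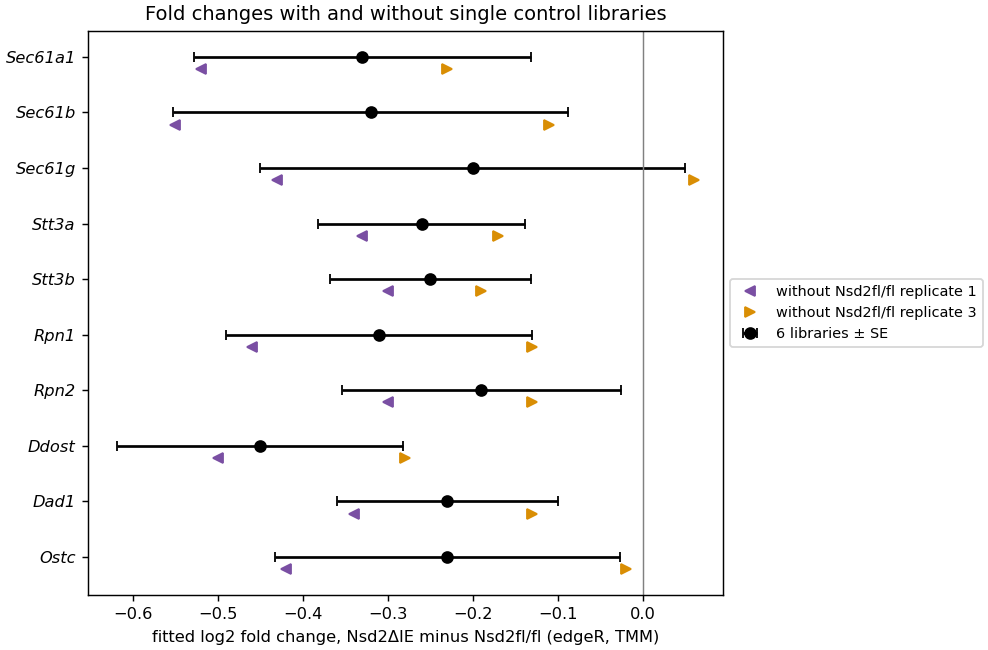
Log2 fold change (Nsd2ΔIE against Nsd2fl/fl, x axis) of each member by edgeR, with bars of ± SE around the fit of all 6 libraries (black) and triangles for the fits without control replicate 1 (purple) or 3 (orange). The black points lie between -0.45 and -0.19, every purple triangle lies to their left and every orange one to their right, with Sec61g at 0.06.

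The members moved together across the libraries, and mainly among the controls. Centred on each gene's own mean, their average log2 CPM was -0.18, 0.17 and 0.39 in control replicates 1, 2 and 3 and -0.19, -0.13 and -0.06 in the knockouts. On average, control replicate 1 was thus at the level of the knockouts, and control replicates 2 and 3 were above all of them. For Stt3a, Stt3b and Ddost, the members without overlap, control replicate 1 was also above every knockout. Control replicate 3 was the highest library for 8 of the 10 members, as it was for 23.9% of all genes, and the exceptions, Sec61a1 and Rpn2, were highest in control replicate 2. The SD of log2 CPM was larger in the controls than in the knockouts for all 10 members and for 73.8% of all genes. Its median over the members was 0.295 in the controls and 0.0833 in the knockouts, against 0.283 and 0.172 over all genes tested. Rpn1 lay closest to the members' average, with a root mean square difference of 0.035 (log2), and Ddost lay farthest from it, with 0.188. Unlike the average, Ddost was lower in control replicate 2 than in control replicate 1.

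**Figure D3:**
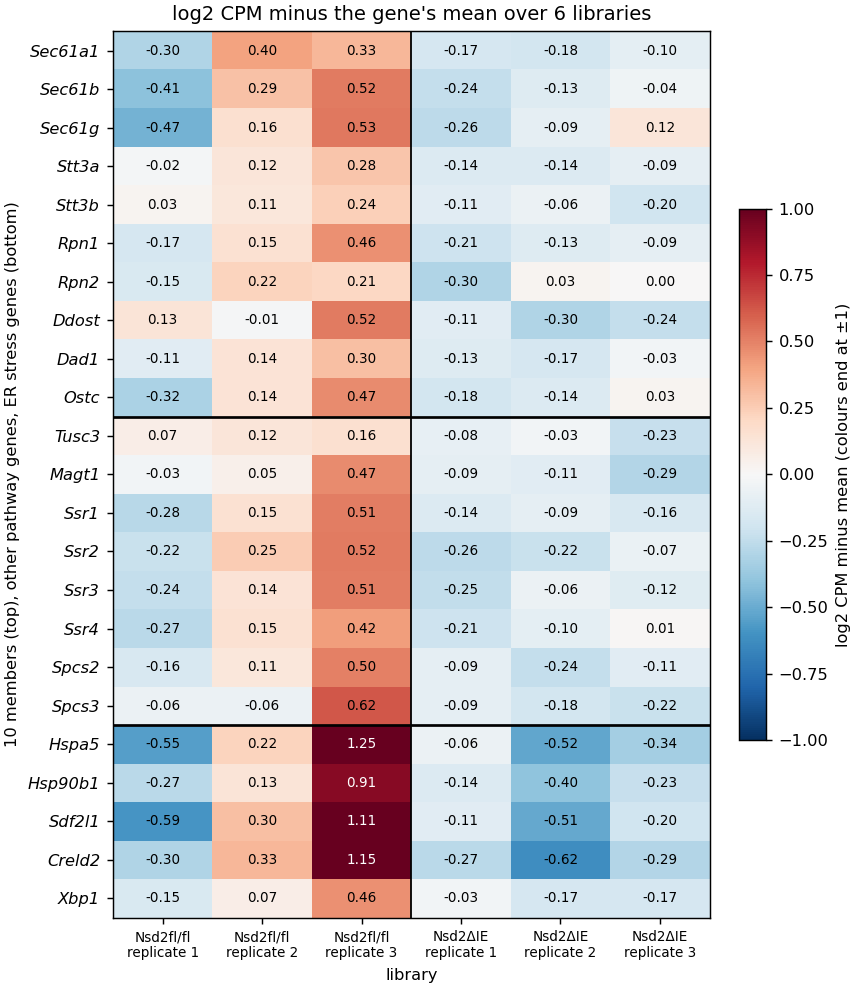
Log2 CPM of each member (top rows) in each library (columns), centred on the gene's mean over the 6 libraries. Middle rows are other pathway genes (Tusc3, Magt1, Ssr1, Ssr2, Ssr3, Ssr4, Spcs2 and Spcs3). They are part of the 63 tested, follow no stated rule and do not stand for the rest. Genes not shown include Ost4 and Sec62 (log2 fold change 0.01 each), Krtcap2 (-0.03), Spcs1 (-0.08) and Tmem258 (-0.09). Of the 63, 48 lay below 0 and 15 above. Bottom rows are ER stress genes (Hspa5, Hsp90b1, Sdf2l1, Creld2 and Xbp1). Control replicate 3 is the highest column for 8 of the 10 members. Control replicate 1 is near the knockouts on average, but above all of them for Stt3a, Stt3b and Ddost.

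The count of members called depended on which libraries were present. Without control replicate 1, 8 of the 10 members passed an unadjusted p under 0.05 with a change of more than 0.32 on the log2 scale (4.48% of all genes passed), and the smallest adjusted p by edgeR was 0.17. Without control replicate 3, 0 members passed (2.68% of all genes), and the log2 fold change of Sec61g was 0.06. Also 0 members passed without knockout replicate 2, where 194 of 16639 genes passed, or knockout replicate 3, where 146 of 16612 did. The members' median log2 fold change was -0.42 without control replicate 1 and -0.13 without control replicate 3. The first principal component of all genes split the libraries across genotypes, with control replicates 1 and 3 and knockout replicate 1 on one side. Each side had 1 library of one genotype, so no test was possible within a side. On that side, knockout replicate 1 differed from the mean of both controls by a median log2 difference of -0.28 over the members (range -0.44 to -0.18), but it was above control replicate 1 for Sec61a1, Sec61b, Sec61g and Ostc, so the sign for these rested on control replicate 3. On the other side, the mean of knockout replicates 2 and 3 differed from control replicate 2 by a median of -0.24 (range -0.54 to -0.15).

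Levels between genes were compared per length, in FPKM averaged over the 6 libraries. Sec61b had the highest level, 193 FPKM (144 to 255), and Ddost followed with 132 (109 to 176). Ostc, at 115 (92.3 to 148), and Sec61g, at 111 (79.9 to 147), came next, and each of these first 4 exceeded the next gene in 5 of 6 libraries. Rpn1, at 97.2 (85.4 to 124), and Sec61a1, at 95.1 (77.6 to 115), were not separated, since Rpn1 was higher in 4 of 6 libraries. At the deposited lengths, every library gave the same order from Sec61a1 down: Rpn2 at 78.2 (64.8 to 84), Stt3b at 58 (54.4 to 63.9), Stt3a at 38 (35.2 to 43) and Dad1 at 26.5 (24.1 to 30.5). On this scale Stt3a and Stt3b, the catalytic subunits, were below Rpn1, Rpn2 and Ddost in all 6 libraries. The places of Rpn2, Sec61g and Dad1 rest on the lengths used. The length behind the deposited Rpn2 values was 4458 bases, while its annotated coding transcripts run from 2621 to 2756 bases, and at the longer of these its mean would be 126 FPKM, between Ddost and Ostc. For Sec61g the deposited length was 779 bases, against coding transcripts of 450 to 1862 bases, and at the longest its mean would be 46.4 FPKM. For Dad1 the deposited length was 3735 bases, against coding transcripts of 878 to 3491 bases, and at the longest its mean would be 28.4 FPKM. At their shortest coding transcripts, Sec61g and Dad1 would both have higher levels than at the deposited lengths, and these were not computed.

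**Figure D4:**
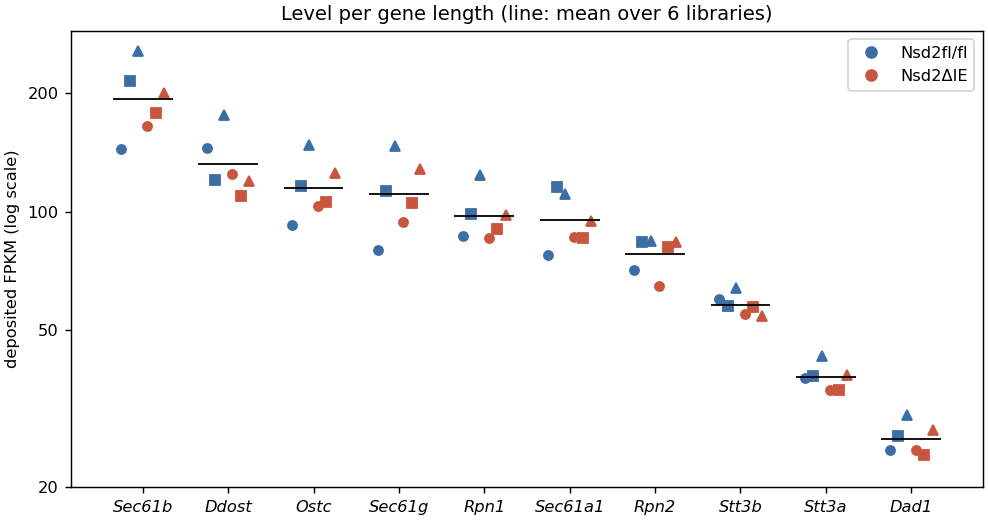
FPKM of each member in the 6 libraries on a log axis (blue, Nsd2fl/fl; red, Nsd2ΔIE; symbols as replicate numbers, line at the mean), ordered by the mean at the deposited lengths. Sec61b is highest at a mean of 193 FPKM and Dad1 is lowest at 26.5 FPKM, and Rpn1 and Sec61a1 are not separated.

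The rest of the pathway comprised 63 tested genes outside the members. Of these, 48 lay below 0 and 15 above, with a median log2 fold change of -0.129. Over all genes tested, 56.3% lay below 0 and the median was -0.041. In 9 of the 63, every knockout library was below every control library (7.28% of all genes), and in 0 above (11.4% of all genes). At an unadjusted p under 0.05, 1 was lower (2.96% of all genes) and 0 were higher (8.15% of all genes). The 1 gene was Dpagt1, whose enzyme makes the first step of the lipid-linked glycan that OST transfers. Dpagt1 was at 41.2, 51.2 and 47 CPM in the controls and 34.6, 37.4 and 37.3 CPM in the knockouts, without overlap, with a fitted log2 change of -0.35 (SE 0.115, adjusted p = 0.359 by edgeR). The 5 signal peptidase genes, whose products remove signal sequences, were all below 0, with a median of -0.235. The 9 other translocon and TRAP genes had a median of -0.224, with 8 below 0. The 6 other OST genes had a median of -0.137, with 5 below 0. The 23 genes of lipid-linked oligosaccharide synthesis had a median of -0.082, with 16 below 0. The 10 genes of the signal recognition particle and its receptor, which bring ribosomes to the channel, had a median of -0.064 with 7 below 0, and the 6 genes of the multipass translocon had -0.012 with 3 below 0. The 4 glycan-trimming genes were all below 0, with a median of -0.174.

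The alternative subunits were read beside the members. TUSC3 and MAGT1 are the exchangeable oxidoreductase subunits of the STT3B form. Magt1 was at 95.4, 100.5 and 135 CPM in the controls and 91.05, 90.2 and 79.4 CPM in the knockouts, without overlap and with a fitted log2 change of -0.34 (SE 0.156, adjusted p = 0.482 by edgeR). Tusc3 was at 45.7, 47.4 and 48.8 CPM in the controls and 41.25, 42.7 and 37.2 CPM in the knockouts, also without overlap, with a fitted log2 change of -0.23 (SE 0.1, adjusted p = 0.464 by edgeR). Neither passed the unadjusted threshold. The lack of overlap, which 7.28% of all genes showed in this direction, was also seen in Stt3a, the catalytic subunit of the other form. The remaining OST genes overlapped between the groups. Their fitted log2 changes were 0.01 for Ost4, -0.03 for Krtcap2, -0.09 for Tmem258 and -0.18 for Mlec. Sec61a2, the less expressed paralogue of Sec61a1, was at 24.1, 18.1 and 20.3 CPM in the controls and 18.5, 17.7 and 18.8 CPM in the knockouts, with overlap and a fitted log2 change of -0.18 (SE 0.141, adjusted p = 0.671 by edgeR).

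**Figure D5:**
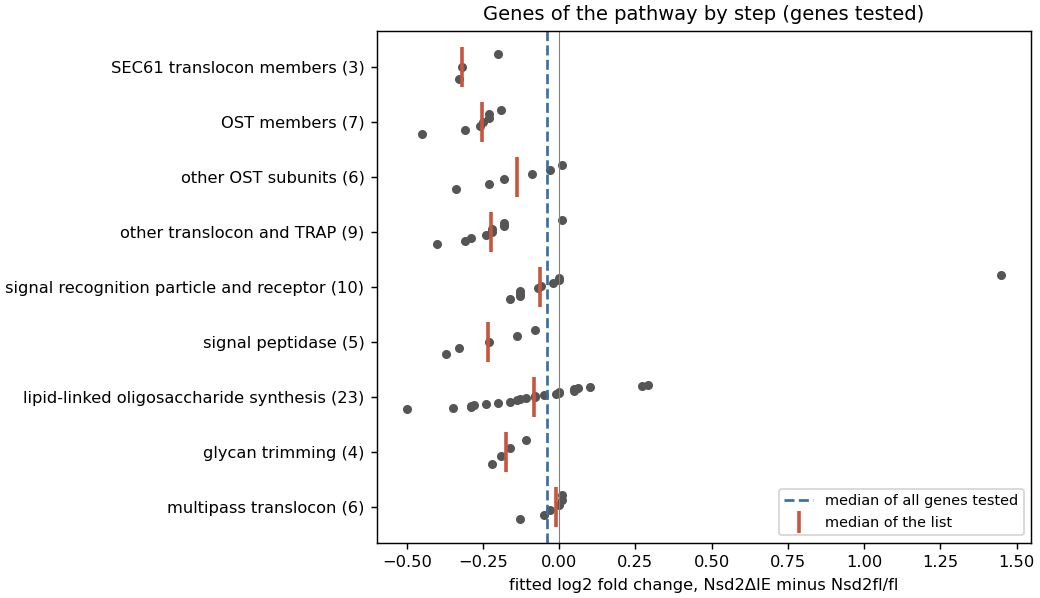
Log2 fold changes (Nsd2ΔIE against Nsd2fl/fl) of the genes of each step of ER entry and N-glycosylation, with the median of each step (red) and of all genes tested (dashed). The point at 1.45 is Srp54b, and the members' steps have medians of -0.318 (SEC61, 3 genes) and -0.253 (OST, 7 genes), and the multipass translocon lies at -0.012.

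Markers of several cell types moved with the groups. The 7 smooth muscle markers were all above 0, 6 of them at an unadjusted p under 0.05 by edgeR. Of all genes, 8.15% were higher and 2.96% lower at that p. The summed level of the smooth muscle markers ran from 1360 to 3929 in the controls and 4889 to 10490 in the knockouts (CPM). The 6 enteric neuron markers were all above 0, 6 of 6 at an unadjusted p under 0.05, with sums of 44.14 to 76.97 in the controls and 95.09 to 124.2 in the knockouts. The 5 tested adipocyte markers were all above 0, 2 of them at an unadjusted p under 0.05, with sums of 15.06 to 30.04 in the controls and 36.96 to 81.47 in the knockouts. The 7 epithelial markers were all below 0 with 0 at an unadjusted p under 0.05, and their sums, 9297 to 16550 in the controls and 9343 to 10620 in the knockouts, overlapped, as did the 7 goblet cell markers at 28340 to 50500 in the controls and 19730 to 31010 in the knockouts. The median log2 fold change was -0.316 for the epithelial markers. For the goblet cell markers it was -0.133, with 5 below and 2 above 0 (range -1.27 to 0.18) and 0 at an unadjusted p under 0.05. All 8 tested plasma and B cell markers were below 0 with a median of -0.688, 1 of them (Derl3) at an unadjusted p under 0.05. All 8 were highest in control replicate 3, as were 23.9% of all genes. The plasma and B cell sums were 1279 to 2439 in the controls and 1059 to 1531 in the knockouts. The 5 ER stress genes (Hspa5, Hsp90b1, Sdf2l1, Creld2 and Xbp1) were also all below 0 and highest in control replicate 3. Of these, 1 (Creld2) was lower at an unadjusted p under 0.05. Hspa5, the main ER chaperone, was at 569, 968 and 1982 CPM in the controls and 796, 579 and 659 CPM in the knockouts. The 5 fibroblast markers were 3 below and 2 above 0, with a median of -0.089 and 1 higher at an unadjusted p under 0.05. Of 5 pancreatic acinar markers 1 passed the filter. The part of these cell types and of ER stress in the members' values was not tested.

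The genes whose centred pattern over the 6 libraries was most like the members' average were Nfxl1, Ubfd1, Ube2n, Rbm10 and Hnrnpa2b1, among 8620 candidates with an average log2 CPM of at least 4. Their root mean square differences from that average were 0.021 to 0.0343 (log2), less than the 0.035 of Rpn1, the closest member. A likeness over 6 libraries is a description only.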

How the data were processed

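RNA-seq libraries from the colons of 3 Nsd2fl/fl and 3 Nsd2ΔIE mice were used, grouped by the labels, with none left out. The authors deposited whole-number read counts per gene symbol. The authors also deposited FPKM values, which equalled the counts divided by a gene length and the library total. The submitters' processing notes name fastp, HISAT2, HTSeq, R 3.2.0 and mm10; settings, annotation and use of strand are not given in the sources used here. Totals ran from 38041832 to 38604680 counts. Every pair of libraries differed beyond sampling noise (chi-square per degree of freedom of at least 35.46), so all 6 were kept. The labels do not say whether same-numbered animals shared a litter or cage. The p-values set the difference between the groups against the spread between these samples.

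Counts were tested with edgeR 4.0.16 in R 4.3.3 (filterByExpr, TMM factors, glmQLFit and glmQLFTest, two-sided, no covariates), with Benjamini-Hochberg adjustment over 16347 genes. The SE was taken from the size of the fold change (log2) over the root of the F statistic. The other threshold, from the study, was an unadjusted p under 0.05 with a fold over 1.25. Log2 CPM used a prior count of 2. DESeq2 1.42.0 and limma 3.58.1 (voom, or log2 FPKM with a pseudocount of 1 or 0.1), other scalings, no filter, a replicate block, a principal component covariate and fits without each library were alternatives. The code was tested on simulated counts. Ratios of FPKM were compared by exact permutation. Positions came from GENCODE M21, promoters from RefSeq (GRCm38.p6), and copies from blastn 2.17.0 (95% identity over 200 bases). The members, the pathway lists and the marker lists (epithelium, goblet, plasma and B cells, smooth muscle, adipocytes, enteric neurons, fibroblasts, pancreatic acinar cells, ER stress) were chosen with earlier results of these data known. Genes named were all members, Nsd2, Sec61a2, Tusc3, Magt1 and the 5 genes of most similar pattern. Pathway genes with an unadjusted p under 0.05 (at most 5 in each direction) were also named. Other pathway and marker genes were named after their values were seen. Protein sequences were not analysed here.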

Additional observations from a re-analysis of the deposited data

How the results depend on the processing

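No member passed an adjusted p of 0.05 in any of the 16 alternative fits, and the members' median log2 fold change stayed between -0.42 and -0.12. All 10 members were below 0 in every fit except the one without control replicate 3, where Sec61g was at 0.06. In the main fit, 1 member, Ddost, was lower at an unadjusted p under 0.05 and passed the fold threshold, as did 361 of the 16347 genes. This count of members became 0 with upper-quartile factors (200 genes passed), library totals alone (142), log2(FPKM + 1) (108), log2(FPKM + 0.1) (138) and the principal component split (543). A fold over 1.5 also gave 0 members, and the count over all genes is not given for it. Leaving out 1 library gave 0 to 8 members. There were 8 without control replicate 1 (747 of 16669 genes passed). There were 0 without control replicate 3 (448 of 16699), knockout replicate 2 (194 of 16639) or knockout replicate 3 (146 of 16612). Ddost kept an unadjusted p under 0.05 in 8 of the 16 fits, and over all 16 its log2 fold change ran from -0.55 to -0.28. The 1 pathway gene lower at that p (2.96% of all genes in the main fit) became 0 with library totals alone, log2(FPKM + 1) and log2(FPKM + 0.1). There were 2 with DESeq2, 2 with the replicate block and 3 with the principal component split. Leaving out 1 library gave 0 to 14, with 14 without control replicate 1 and 2 without control replicate 2. The share of all genes lower at that p is not given for these fits, so the counts are not read as a result about the pathway. The difference in the log2 ratio of Stt3a to Stt3b ran from -0.06 to 0.04 when 1 library was left out, and was -0.03 without control replicate 1. The cause of these changes was not tested. Library totals alone moved the median of all genes by 0.127 on the log2 scale, log2(FPKM + 1) by 0.102 and log2(FPKM + 0.1) by 0.135, and relative to that shift the members stayed below the median of all genes. The replicate numbers were not shown to pair the samples, since same-numbered libraries correlated at 0.501, 0.643 and -0.166 in their deviations from the group means. With the replicate block, 1 member was lower, Ddost at -0.43 (adjusted p = 0.33 by edgeR).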

Other observations

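One gene of the pathway lists, named here after its values were seen, had a wide gap among the controls. Srp54b, one of several near-identical mouse genes for the SRP54 subunit that reads signal sequences, had 559, 2 and 2 counts in control replicates 1, 2 and 3 and 616, 261 and 749 counts in knockout replicates 1, 2 and 3. Control replicates 2 and 3 were near 0 and the other 4 libraries were not. Srp54a was at 5.35, 6.39 and 7.13 CPM in the controls and 6.94, 6.23 and 5.375 CPM in the knockouts, and Srp54c was at 16.7, 16.6 and 22.9 CPM in the controls and 20.2, 17.3 and 16.3 CPM in the knockouts, so neither showed such a gap. Reads shared among these copies make the split between them uncertain.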
